A study of Homo sapiens with 6 samples.

Results

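The 10 genes described here make, carry, sense and remove retinoic acid, and they were picked by name (RDH10, DHRS3, ALDH1A1, ALDH1A2, ALDH1A3, CYP26B1, CRABP2, RARA, RARB and RARG) from a table of 29185 genes. All 10 were found in it. The cells were SKOV3, a long established line from a human ovarian cancer. One group, sh-KLF5, carried a short hairpin RNA against the transcription factor KLF5, and the other, sh-NC, was the control. Polyadenylated RNA was sequenced from 3 libraries of each. According to the study's methods the hairpin was delivered by lentivirus in the pLKO.1-EGFP-Puro vector and stable lines were selected with puromycin. The labels give the genotype as "KLF5 knockdown" or, for the control, as "WT". The labels give no other treatment and no time point for either group, and the sources do not say whether the libraries of a group came from separate cultures, so p-values measure only the spread between these libraries, which may be technical. In RNA from a whole culture, fewer cells using a gene and less RNA per cell cannot be told apart.

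Retinoic acid is made from retinol (vitamin A) in a pair of oxidation steps. Retinol dehydrogenases such as RDH10 form retinal, which DHRS3 can reduce back to retinol, and the ALDH1A enzymes oxidise retinal to retinoic acid. CRABP2 carries retinoic acid to its nuclear receptors RARA, RARB and RARG, which bind DNA together with a retinoid X receptor (RXR), and CYP26 enzymes such as CYP26B1 degrade it. In many cells retinoic acid itself raises the RNA of DHRS3, CRABP2, RARB and the CYP26 enzymes. ALDH activity, which the study used as a stemness readout in ovarian cancer cells, comes in part from the ALDH1A enzymes. The study reported a lower percentage of ALDH-positive cells after KLF5 silencing in olaparib-resistant A2780 and SKOV3 lines. It also described diminished stemness by this assay in SKOV3 cells with KLF5 knockdown. The assay measures enzyme activity and not the RNA described here.

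Sequences before the annotated starts are shown for the members that passed the test in the libraries and are in the RefSeq promoter table (GRCh38.p14), DHRS3 and CRABP2, and for RARB, which carries the best-known retinoic acid response element. Of the 10 members 9 had an entry in that table, and RDH10 did not. Capitals mark the GC box GGGCGG and the CACCC box CCACCC, letters that KLF and SP factors are known to bind, or the same letters read on the other strand (CCGCCC and GGGTGG). Both strands were searched in windows of 300 bases (250 before the start and 50 after), of which 45.0% of all 35116 windows held GGGCGG and 34.3% held CCACCC. Stretches are on the minus strand of chromosome 1, are written 5′ to 3′, and stop before the first base that GENCODE 29 places in an exon. The 2 DHRS3 stretches come before 2 of its 3 RefSeq starts, at chr1:12618211-12618460 and chr1:12616796-12617039, and the CRABP2 stretch is chr1:156705817-156706034. The first DHRS3 start and its stretch lie outside the DHRS3 gene as counted (12567910 to 12617731), and the second stretch lies inside it. Which start the cells used was not tested.
DHRS3, first start: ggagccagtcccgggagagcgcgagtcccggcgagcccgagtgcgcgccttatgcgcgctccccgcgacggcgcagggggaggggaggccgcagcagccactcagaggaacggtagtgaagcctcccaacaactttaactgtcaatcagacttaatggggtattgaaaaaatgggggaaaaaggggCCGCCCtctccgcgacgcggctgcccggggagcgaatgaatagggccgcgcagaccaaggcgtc
DHRS3, second start: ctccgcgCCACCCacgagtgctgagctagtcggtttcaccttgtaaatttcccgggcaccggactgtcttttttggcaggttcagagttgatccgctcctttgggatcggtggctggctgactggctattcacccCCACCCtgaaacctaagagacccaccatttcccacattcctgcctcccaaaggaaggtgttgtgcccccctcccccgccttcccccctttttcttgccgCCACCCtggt
CRABP2: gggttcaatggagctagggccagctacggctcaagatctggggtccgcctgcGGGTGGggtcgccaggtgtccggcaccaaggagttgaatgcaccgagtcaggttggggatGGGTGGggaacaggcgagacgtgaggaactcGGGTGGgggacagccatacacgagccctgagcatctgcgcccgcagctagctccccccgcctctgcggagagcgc
The first DHRS3 window held 1 GGGCGG and no CCACCC, the second held 3 CCACCC and no GGGCGG, and the third, not shown, held neither. The CRABP2 window held 3 CCACCC, all on the other strand, and no GGGCGG. Windows of members that did not pass held them too, with 6 GGGCGG and 2 CCACCC for ALDH1A3 and 5 and 2 for RARG. The CYP26B1 window held neither. Both motifs are common in windows of this length, and a match is only a match of letters. The shares of all windows given above count windows with at least 1 match.

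A direct repeat of the receptors' core site with a gap of 5 bases (DR5) was searched too. The core sites allowed were AGGTCA as the consensus, GGGTCA with another first base, AGTTCA with another inner base, and GGTTCA with both changes. It was found in 0.0883% of all windows and, among the windows of the 9 members, only in 1 of the 4 RARB windows. The stretch shown is chr3:25428204-25428233 on the plus strand, inside the RARB gene, and the match within it begins 53 bases before the RefSeq start. Here the capitals mark the 2 core sites.
RARB: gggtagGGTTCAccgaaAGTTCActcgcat
No member window held the spacing of 2 (DR2) or of 1 (DR1), which 0.0399% and 0.131% of all windows held.

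Depth was nearly equal between the groups, at 15852319 to 17543896 reads per sh-NC library and 16009859 to 16871350 reads per sh-KLF5 library. A gene is said to have fallen or risen, or to be called, when its adjusted p-value (limma on log2(normalized count + 1), Benjamini-Hochberg over 15803 genes) was under 0.05 and its log2 fold change was beyond 1 in either direction. KLF5 itself stood at 4371, 4425 and 4494 normalized counts in the sh-NC libraries and at 1745, 1440 and 1436 in the sh-KLF5 libraries, in the direction of the labels. A normalized count is a gene's read number after each library was scaled by its own factor. The sh-KLF5 replicate 1 was the library least like its replicates, with Pearson's r of 0.980 and 0.979 across genes against 0.987 for the other sh-KLF5 pair. The marker counts that follow stand beside 3.37% of all tested genes that fell and 1.90% that rose. By adjusted p alone these shares were 6.85% lower and 6.04% higher. Of the 10 epithelial and ovarian carcinoma markers analysed all were tested, 2 fell and none rose. Their summed level was 2691 to 3144 TPM (reads per base of gene, scaled to the same total in every library) in sh-NC and 1493 to 1888 TPM in sh-KLF5. Those that fell were KRT8, from a mean of 21816 to 9817 normalized counts, and MUC16, and KRT8 was no longer called without sh-KLF5 replicate 1 (log2 fold change -0.99, short of the fold threshold). By adjusted p alone (limma) KRT7 (log2 fold change -0.78, from 32104 to 18750.5 normalized counts), KRT18 (-0.64) and MSLN (-0.71) were lower too. EPCAM had means of 120 and 118 normalized counts. Of 9 fibroblast markers 8 were tested, 5 fell (COL1A2, COL3A1, DCN, PDGFRA and THY1) and 1 rose (FAP), with a sum of 47.0 to 73.5 TPM in sh-NC and 22.1 to 49.5 TPM in sh-KLF5. Both tested mesothelial markers (UPK3B and BNC1, of 4) fell, from a sum of 9.69 to 11.3 TPM to one of 4.89 to 6.36 TPM, but UPK3B was no longer called when any library other than sh-KLF5 replicate 1 was left out (limma, adjusted p 0.0623 to 0.108). Only 1 of 3 endothelial markers, PECAM1, and 1 of 4 blood cell markers, CD14, were tested, and neither was called by limma, edgeR or DESeq2. Both had an unadjusted p under 0.05 (limma). CD14 had means of 187 normalized counts for sh-NC and 305 for sh-KLF5, a log2 fold change of 0.66 (SE 0.23) with an adjusted p of 0.0725 by limma, 0.0491 by edgeR and 0.0254 by DESeq2. PECAM1 was at -0.61 (SE 0.28; limma, adjusted p = 0.172). Their sums were 2.01 to 2.49 TPM in sh-NC and 0.976 to 2.22 TPM in sh-KLF5 for the endothelial list, and 19.1 to 28.6 TPM and 22.9 to 48.6 TPM for the blood cell list. PTPRC, the pan-leukocyte marker, had no read in sh-NC and at most 1 read in an sh-KLF5 library. The part of these marker changes in the results below was not tested.

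Among the 10 retinoic acid genes, RDH10 and CRABP2 fell and DHRS3 rose in sh-KLF5 cells, each by more than 3-fold. By the rule above 2 of the 8 tested members were lower, where 3.37% of all tested genes were, and 1 of 8 was higher, where 1.90% were. Without the fold threshold the members' counts were the same, where 6.85% of all tested genes were lower and 6.04% higher. The other 5 tested members, ALDH1A2, ALDH1A3, CYP26B1, RARA and RARG, were not called. ALDH1A1 and RARB, with at most 5 reads in any library, did not pass the filter on low counts. The median log2 fold change of the 8 tested members was 0.04, and that of all tested genes was -0.0023. The members were chosen with results of these libraries known, and the study had picked RDH10 from them for its own qPCR, so these counts are not independent evidence.

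**Figure D1:**
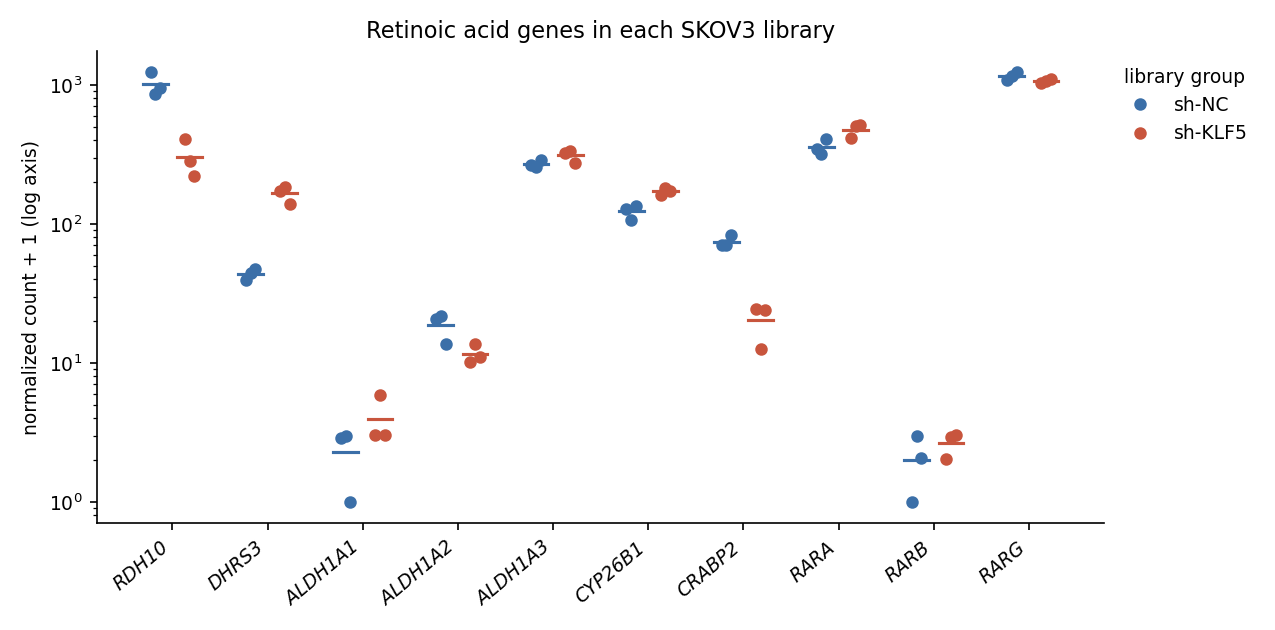
Normalized counts plus 1 (log axis) of the 10 retinoic acid genes in the 3 sh-NC (blue) and 3 sh-KLF5 (red) libraries, 1 point per library, with a line at each group's mean. RDH10 and CRABP2 are lower and DHRS3 is higher in every sh-KLF5 library, while RARG and ALDH1A3 overlap between the groups and ALDH1A1 and RARB lie near 0.

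RDH10 is an endoplasmic reticulum enzyme that oxidises retinol to retinal, a step known to be needed for retinoic acid in the embryo. It lies on chromosome 8 at 73294612 to 73325281 (plus strand, GRCh38). Its normalized counts were 1226, 861 and 943 in the sh-NC libraries and 405, 280 and 221 in the sh-KLF5 libraries. The highest sh-KLF5 library was below the lowest sh-NC library, and the spread within each group was wide. The sh-NC mean was 1010.2 ± 191 normalized counts and the sh-KLF5 mean 302 ± 93.9 (SD, n = 3 each), a log2 fold change of -1.77 (SE 0.19) with a 95% confidence interval of -2.17 to -1.36 (limma, adjusted p = 9.86e-06). The exact two-sided permutation test over the libraries gave p = 0.1, the smallest value that 3 libraries against 3 can give. Of its exonic bases 5.22% are shared with the antisense gene RDH10-AS1, on the other strand. RDH10-AS1 had 30, 24 and 28 reads in sh-NC and 6, 25 and 9 in sh-KLF5, and the groups overlapped through sh-KLF5 replicate 2. Its log2 fold change of -1.20 (SE 0.45) did not pass (limma, adjusted p = 0.1), but did without that library (-1.73, limma, adjusted p = 0.022, in a range of 0.022 to 0.254 over its 14 alternatives). The sources used here do not say whether the counting used strand, so reads in the shared bases cannot be told apart.

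DHRS3, the enzyme that works in the opposite direction and returns retinal to retinol, showed the opposite difference. The sh-NC libraries held 38.2, 43.4 and 46.7 normalized counts of it and the sh-KLF5 libraries 170, 184 and 138. Every sh-KLF5 library was far above every sh-NC library. The mean was 42.7 ± 4.29 (SD, n = 3) and 164 ± 23.6 (SD, n = 3) normalized counts, which is 3.84-fold higher, with a log2 fold change of 1.91 (SE 0.21, 95% confidence interval 1.46 to 2.36; limma, adjusted p = 1.18e-05). The gene lies on chromosome 1 at 12567910 to 12617731 (minus strand), and none of its exonic bases is shared with another gene. In TPM, RDH10 was at 44.8 ± 9.20 and DHRS3 at 3.31 ± 0.253 in sh-NC, with no overlap. In sh-KLF5 cells the levels were 13.5 ± 4.52 TPM for RDH10 and 12.9 ± 2.23 TPM for DHRS3 (SD, n = 3), and the 2 genes overlapped.

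CRABP2, the cytosolic protein that hands retinoic acid to its receptors, fell. It had 68.9, 69.0 and 82.8 normalized counts in sh-NC and 23.4, 11.6 and 23.1 in sh-KLF5. The groups did not overlap, and sh-KLF5 replicate 2 was the lowest. The means were 73.5 ± 7.98 and 19.4 ± 6.70 normalized counts (SD, n = 3), so that 26.4% of the sh-NC level was left, with a log2 fold change of -1.93 (SE 0.31, 95% confidence interval -2.59 to -1.27; limma, adjusted p = 4.63e-04). The value behind it is small, at 12 to 23 reads per sh-KLF5 library. The gene lies on chromosome 1 at 156699606 to 156705816 (minus strand), with no exonic base shared with another gene. Its letters are those shown above, with 3 CCACCC matches, and windows of some uncalled members held such matches too. The related protein gene CRABP1 was looked for by name and was not among the genes with values here.

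**Figure D2:**
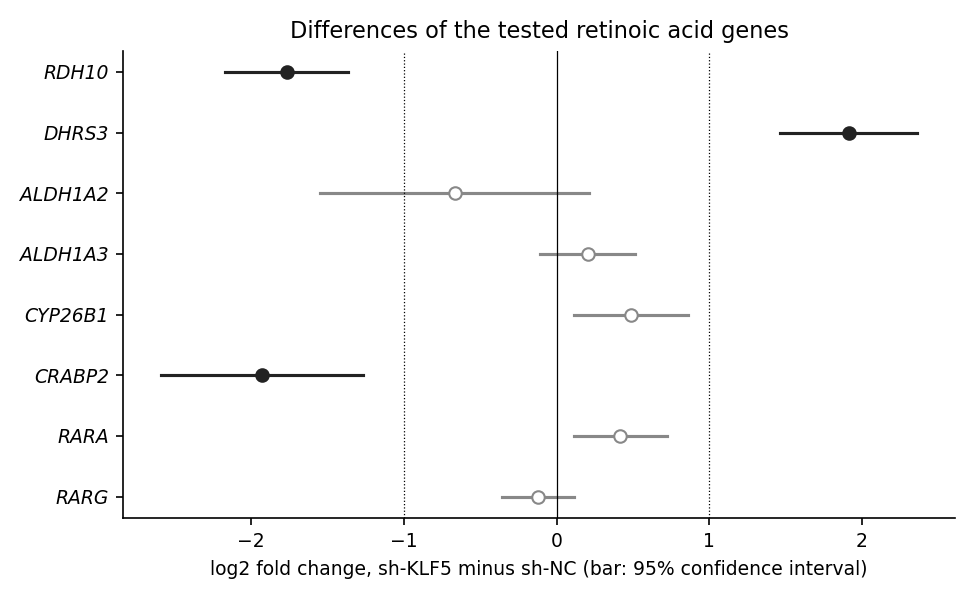
Log2 fold change (sh-KLF5 minus sh-NC) of the 8 tested members, with the 95% confidence interval from limma as a bar. Filled points were called changed, open points were not, and dotted lines mark the fold threshold. The intervals of RDH10, CRABP2 and DHRS3 lie beyond 1, and those of ALDH1A2, ALDH1A3 and RARG include 0.

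The ALDH1A enzymes carry out the later oxidation, from retinal to retinoic acid, and none of the tested ones was called. ALDH1A3 had 263, 253 and 286 normalized counts in sh-NC and 324, 333 and 271 in sh-KLF5. The groups overlapped, and its log2 fold change was 0.20 (SE 0.15, 95% confidence interval -0.11 to 0.51; limma, adjusted p = 0.412). Of its exonic bases 27.5% lie opposite another gene (AC015712.2 or AC015712.5) and 1.09% are shared on its own strand. ALDH1A2, the main such enzyme of many embryonic tissues, was low, with 21, 21 and 12 reads in sh-NC and 9, 13 and 10 in sh-KLF5. Its normalized counts did not overlap, but the lowest sh-NC value, 12.7, and the highest sh-KLF5 value, 12.6, were almost equal, and the log2 fold change of -0.67 (SE 0.42) had a 95% confidence interval from -1.55 to 0.21 (limma, adjusted p = 0.338). ALDH1A1, often used as a stem cell marker in carcinomas, had 2, 2 and 0 reads in sh-NC and 2, 5 and 2 in sh-KLF5, at or close to the 3 reads that a count of 0 allows. No difference in ALDH1A1 was detectable at this depth.

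Per base of gene, ALDH1A3 made up 94.8% ± 1.99 of the reads of the 3 ALDH1A genes in the sh-NC libraries and 96.0% ± 1.08 in the sh-KLF5 libraries (SD, n = 3). ALDH1A2 made up 4.22% ± 1.18 and 2.21% ± 0.323, and ALDH1A1 0.940% ± 0.816 and 1.83% ± 0.850. Almost all ALDH1A RNA in these SKOV3 libraries was that of ALDH1A3, in each of the 6 libraries. Shares are a description and were given no test.

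CYP26B1, which degrades retinoic acid, had 128, 105 and 133 normalized counts in sh-NC and 159, 181 and 171 in sh-KLF5. The groups did not overlap, yet the difference was modest, at a log2 fold change of 0.49 (SE 0.17, 95% confidence interval 0.12 to 0.86), and did not pass after adjustment (limma, adjusted p = 0.0818). Over 15 alternatives its adjusted p ran from 0.0479 to 0.318 (limma, edgeR or DESeq2), and its log2 fold change never reached 1. The other 2 members of that enzyme family were hardly detected. CYP26A1 had 3 reads in 1 library of each group and none elsewhere. CYP26C1 had 0, 4 and 4 reads in sh-NC and 0, 0 and 1 in sh-KLF5, so its groups overlapped. Neither gene passed the filter on low counts.

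The retinoic acid receptors are transcription factors that switch their target genes on when retinoic acid is bound. RARG had the highest mean of the members in both groups, with 1089, 1160 and 1231 normalized counts in sh-NC and 1035, 1068 and 1093 in sh-KLF5. The groups overlapped, and the log2 fold change was -0.12 (SE 0.11, 95% confidence interval -0.36 to 0.12; limma, adjusted p = 0.538). RARA had 344, 317 and 407 normalized counts in sh-NC and 414, 501 and 513 in sh-KLF5. All sh-KLF5 values were above all sh-NC values, by as little as 407 against 414. The log2 fold change of 0.42 (SE 0.14, 95% confidence interval 0.11 to 0.72) did not pass after adjustment (limma, adjusted p = 0.0695, and 0.00809 to 0.294 over 15 alternatives, the lowest without sh-KLF5 replicate 1). Of its exonic bases 17.9% lie opposite RARA-AS1 or AC080112.3. RARB, the receptor gene whose DR5 element is printed above, had 0, 2 and 1 reads in sh-NC and 1, 2 and 2 in sh-KLF5, below the 3 reads that a count of 0 allows, so no difference could be seen at this depth.

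Within the receptor family the balance between RARG and RARA differed between the groups, per base of gene. RARG took 75.0% ± 1.79 of the 3 receptor genes' reads in the sh-NC libraries and 67.4% ± 2.03 in the sh-KLF5 libraries, and RARA took 24.9% ± 1.85 and 32.5% ± 1.99 (SD, n = 3). RARA shares ran from 22.8% to 26.4% in sh-NC and from 30.2% to 33.7% in sh-KLF5, so the groups did not overlap. RARB was at 0.0898% and 0.143% on average. These shares depend on both genes at once and were not tested.

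**Figure D3:**
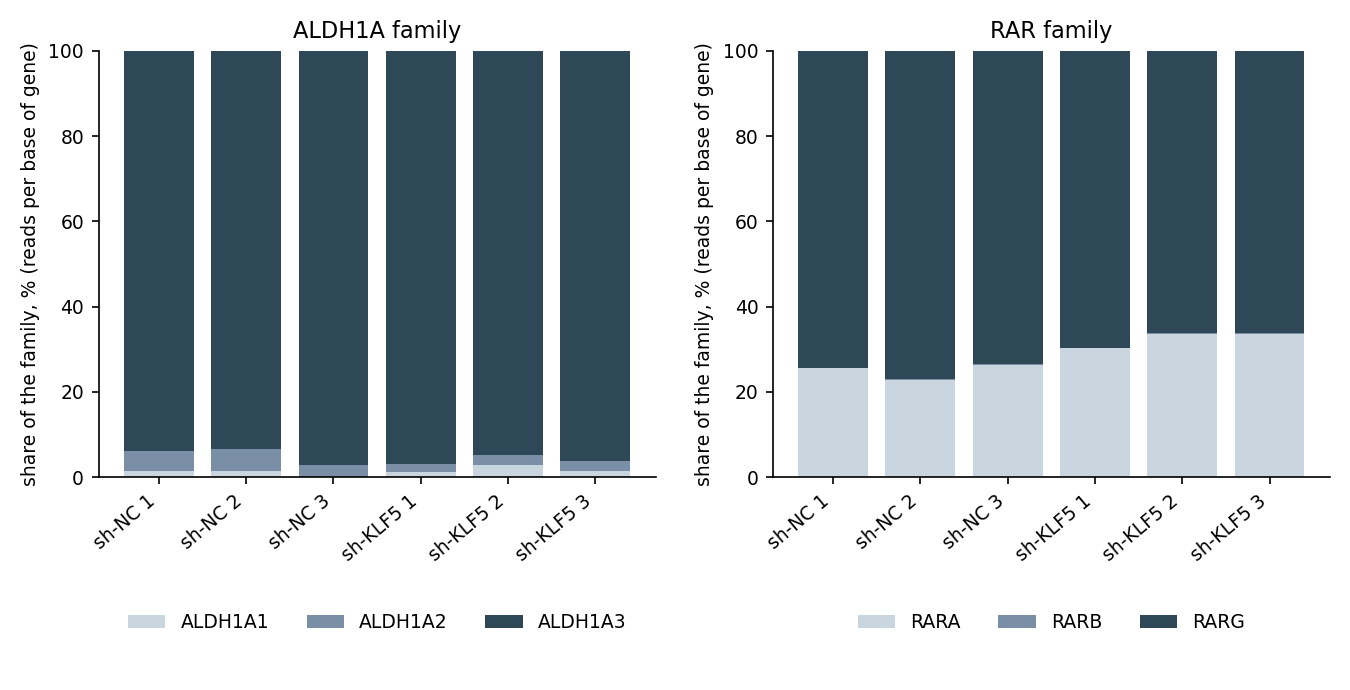
Stacked shares (%, reads per base of gene) of ALDH1A1, ALDH1A2 and ALDH1A3 (left) and of RARA, RARB and RARG (right) in each of the 6 libraries. ALDH1A3 fills 93.4% to 97.1% of its family in every library, and the RARA share is larger in each sh-KLF5 library than in any sh-NC library.

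Ordered by TPM in sh-NC, the members ran from RARG (53.3 ± 1.90) and RDH10, whose ranges overlapped, through RARA (17.7 ± 1.76) and CRABP2 (15.7 ± 1.19), which also overlapped, to ALDH1A3 (10.9 ± 0.388), CYP26B1 (5.72 ± 0.595), DHRS3 (3.31 ± 0.253) and ALDH1A2 (0.485 ± 0.130). ALDH1A1 and RARB came last and overlapped (SD, n = 3). In sh-KLF5 cells RARG (49.2 ± 1.02) was followed by RARA (23.8 ± 2.35), then by RDH10, DHRS3 and ALDH1A3 (12.7 ± 1.79), each of which overlapped its neighbour in that order. CYP26B1 (8.05 ± 0.596), CRABP2 (4.15 ± 1.40) and ALDH1A2 (0.291 ± 0.0537) came next, and ALDH1A2 overlapped ALDH1A1. By mean TPM, RDH10 went from rank 2 to rank 3, CRABP2 from rank 4 to rank 7 and DHRS3 from rank 7 to rank 4. In normalized counts, 6 of the 8 tested members had groups that did not overlap, where 31.3% of all tested genes had no overlap. ALDH1A2 was among them, but its groups overlapped in TPM (lowest sh-NC value 0.335, highest sh-KLF5 value 0.353).

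Around these members stand 5 lists of other retinoid genes, 72 of whose genes were analysed and 53 tested. Of the 53, 3 fell, 2 rose and 48 were not called, and their median log2 fold change was 0.17. Of all tested genes 3.37% fell and 1.90% rose. Without the fold threshold 5 of the 53 were lower and 6 higher, beside 6.85% and 6.04% of all tested genes. The 5 called genes were STRA6, PRAME, MEIS1, BTG2 and SOX9. STRA6 and PRAME passed the filter on low counts only through sh-NC, where they were higher, so a rise could not have been called. Where each library had to hold 10 reads, 1 gene was called lower instead of 3. Each list is described by its counts and was not tested as a set.

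Of the genes for uptake, storage and cleavage, 6 of 11 were tested, 1 fell and none rose. Among all tested genes 3.37% fell and 1.90% rose. The gene that fell was STRA6, the membrane receptor that takes up retinol from its plasma carrier. It had 52, 50 and 42 reads in sh-NC and 8, 10 and 3 in sh-KLF5, with no overlap, and passed the filter on low counts only through sh-NC. Its log2 fold change was -2.72 (SE 0.42; limma, adjusted p = 3.04e-04), and 7.02% of its exonic bases lie opposite CCDC33. The most abundant genes of that list per base were RETSAT, retinol saturase, at a log2 fold change of 0.17 (SE 0.11; limma, adjusted p = 0.362) and the retinol-binding protein gene RBP5 at -0.26 (SE 0.18; limma, adjusted p = 0.411). Of the other oxidoreductases 11 of 19 were tested and none was called by limma, edgeR or DESeq2, with 1 at an unadjusted p under 0.05 (limma). The most abundant of them were AKR1B1, an aldo-keto reductase, with means of 21718 and 20943 normalized counts, and ADH5, with means of 2111 and 2426. In the list of other clearance and binding genes 2 of 5 were tested, FABP5 and CYP2S1, and neither was called by any of these tools or had an unadjusted p under 0.05 (limma). FABP5, a fatty acid-binding protein that can carry retinoic acid to another receptor, had a log2 fold change of 0.27 (SE 0.14; limma, adjusted p = 0.238).

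**Figure D4:**
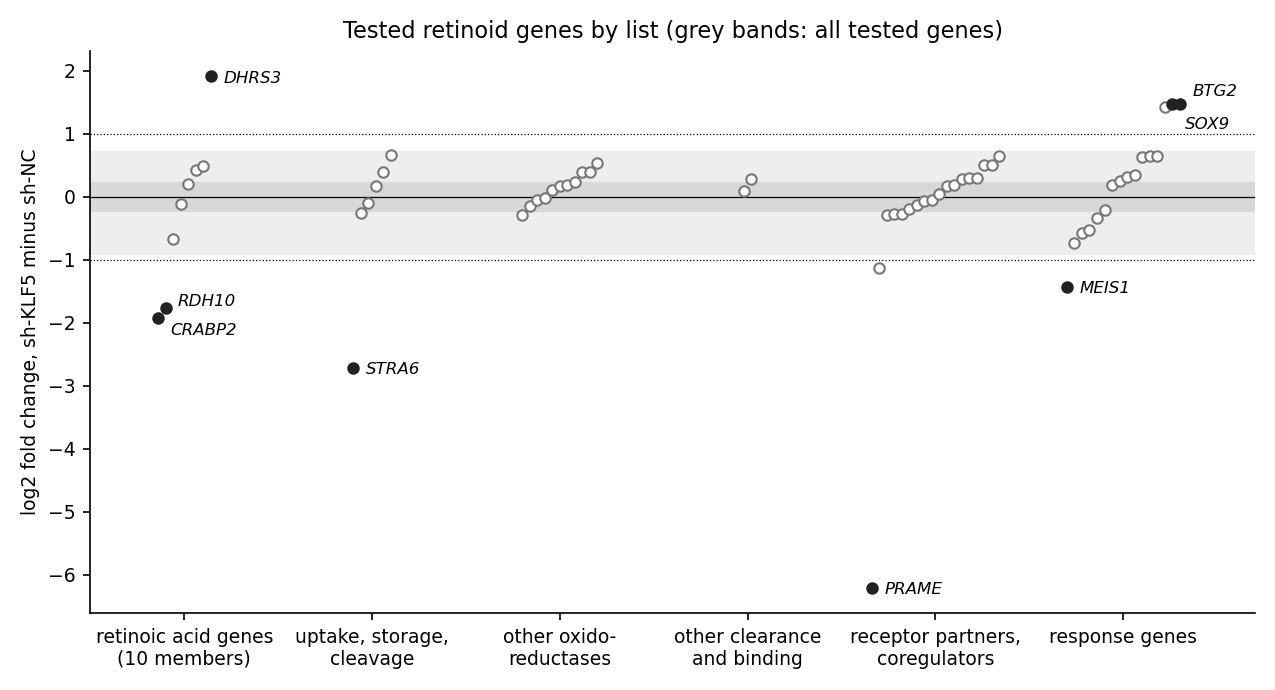
Log2 fold change (sh-KLF5 minus sh-NC) of every tested gene of the 10 members and of the 5 other retinoid lists, 1 point per gene, with filled points for called genes. Grey bands hold the middle 50% and 90% of all tested genes (5th to 95th percentile -0.90 to 0.72), and dotted lines mark the fold threshold.

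All 18 receptor partners and coregulators were tested. Of these 1 fell, PRAME, and none rose, beside 3.37% of all tested genes that fell and 1.90% that rose. PRAME is a tumour antigen known to bind retinoic acid receptors and repress their signalling. It had 216, 134 and 143 reads in sh-NC and 4, 0 and 1 in sh-KLF5, and passed the filter on low counts only through sh-NC. Since the sh-KLF5 libraries lay near 0, its log2 fold change of -6.21 (SE 0.50; limma, adjusted p = 4.61e-07) ran from -7.69 to -4.66 with the choice of alternative. The partner RXRG had a log2 fold change of -1.13 (SE 0.49) and did not pass (limma, adjusted p = 0.152), and the abundant partners RXRA and RXRB were at 0.17 and 0.30 and did not pass. The coactivator EP300, among the most abundant of this list, was at a log2 fold change of -0.28 (SE 0.14) and did not pass (limma, adjusted p = 0.201). Without the fold threshold the orphan receptors NR2F1 (0.64) and NR2F2 (0.50) and the corepressor NRIP1 (0.50) were also higher, by an adjusted p under 0.05 (limma). These 3 genes and RXRG, RXRA and RXRB were named after their values were seen.

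Genes that retinoic acid is known to change in other cells went in both directions. Of 19 such genes 16 were tested, 2 rose, 1 fell and 13 were not called, beside 1.90% of all tested genes that rose and 3.37% that fell. BTG2, an antiproliferative gene, had 189, 143 and 135 normalized counts in sh-NC and 503, 422 and 371 in sh-KLF5. Its groups did not overlap, and the log2 fold change was 1.47 (SE 0.17; limma, adjusted p = 1.97e-05). SOX9, a transcription factor of cartilage and of several epithelia, had 96.8, 79.8 and 108 normalized counts in sh-NC and 252, 315 and 228 in sh-KLF5, also apart, with a log2 fold change of 1.47 (SE 0.19; limma, adjusted p = 4.96e-05). MEIS1, a homeobox gene, moved the other way, from 220, 172 and 154 normalized counts to 71.3, 73.7 and 55.1, with a log2 fold change of -1.43 (SE 0.21; limma, adjusted p = 1.63e-04). Of its exonic bases 4.19% lie opposite MEIS1-AS2 or MEIS1-AS3.

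TGM2, tissue transglutaminase and the most abundant of the response genes with ICAM1, had means of 5268 and 8473 normalized counts. Its log2 fold change of 0.63 (SE 0.22) did not pass (limma, adjusted p = 0.0818, and 1.02e-04 to 0.456 over 15 alternatives). ICAM1 was at 0.24 (SE 0.12; limma, adjusted p = 0.229). Without the fold threshold RARRES3 (-0.74) and MEIS2 (-0.53) were also lower and TGFB2 (0.65) was also higher, named after their values were seen. Of the known response genes among the members and this list, DHRS3, BTG2 and SOX9 rose while CRABP2 and MEIS1 fell. The member CYP26B1 (0.49) and 13 of the 16 tested genes of this list were not called, and RARB was too low to test. This tally depends on how the lists were drawn and leaves out genes of the other lists, such as STRA6.

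**Figure D5:**
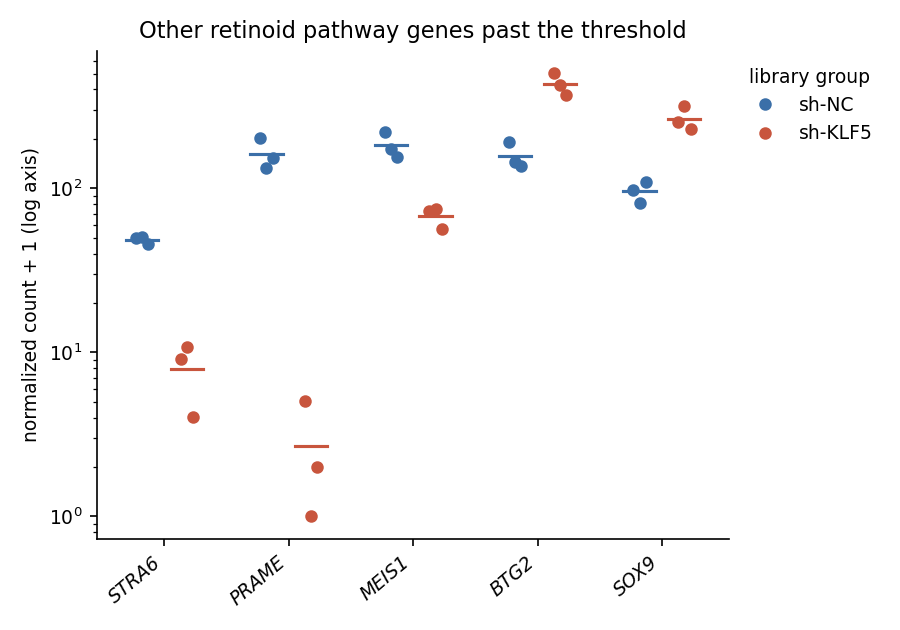
Normalized counts plus 1 (log axis) of the 5 called genes of the other retinoid lists in the 3 sh-NC (blue) and 3 sh-KLF5 (red) libraries, 1 point per library, with a line at each group's mean. STRA6, PRAME and MEIS1 are lower and BTG2 and SOX9 higher in every sh-KLF5 library than in any sh-NC library.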

How the data were processed

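Polyadenylated RNA of SKOV3 cells was analysed in 3 sh-NC and 3 sh-KLF5 libraries, grouped by their labels. The authors deposited 1 table with a normalized signal (reads of a gene after scaling by a factor per library) and their own group means, fold changes and p-values, which were not used. The submitters' processing notes name HISAT2 2.0.5, featureCounts 1.5.0-p3, DESeq2 1.20.0 and hg38. Gene coordinates matched GENCODE 29 for 29180 of 29185 genes.

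The smallest value above 0 of a library was taken as 1 read, which made 100% of values whole reads (tolerance 1e-06). At these depths 3 reads, the limit that a count of 0 allows, were 0.171 to 0.189 CPM, for counting error only. Genes were kept by edgeR's filterByExpr (minimum count 10). limma 3.58.1 (R 4.3.3, trend and robust) compared log2(normalized count + 1), which understates the change of low genes. The fits by limma, edgeR and DESeq2 were tested on simulated counts. edgeR 4.0.16 and DESeq2 1.42.0 on the recovered reads, TMM or library-size scaling, pseudocounts of 0.1 and 5, other filters, a replicate block and leaving out each library were alternatives. Figures were drawn with matplotlib 3.10.9.

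The members, lists and alternatives were chosen with earlier results of these data known. Named genes are the members, KLF5, RDH10-AS1, called genes of the other lists and the 2 most abundant genes per base of each list, with exceptions stated in the text. A gene covered by this rule is not reported here.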

Additional observations from a re-analysis of the deposited data

How the results depend on the processing

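RDH10, CRABP2 and DHRS3 kept their direction and their call in all 15 alternatives, with log2 fold changes of -2.00 to -1.57, -2.09 to -1.61 and 1.82 to 2.03, and no other tested member gained a call. The members called stayed at 2 lower and 1 higher also when each library was left out. Genes called lower numbered 533, and 811 with no filter on low counts, 1083 without the fold threshold and 231 where each library had to hold 10 reads. Genes called higher numbered 301, and 955 without the fold threshold. Leaving out 1 library gave 461 to 620 lower and 253 to 337 higher. Of the other retinoid genes 3 were called lower, 1 where each library had to hold 10 reads, since STRA6 and PRAME were then not tested, and 5 without the fold threshold. The 2 called higher became 6 without the fold threshold, and 2 to 3 with 1 library left out. Among the uncalled retinoid genes followed through the alternatives, those reported here that changed sign were AKR1B1 (0.08 without sh-NC replicate 3 and 0.12 without sh-KLF5 replicate 3, against -0.06, over a range of -0.21 to 0.12) and CYP2S1 (-0.29 without sh-KLF5 replicate 2, against 0.08, over -0.29 to 0.37), and the cause was not tested.

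Same-numbered libraries correlated by 0.0590, 0.0331 and 0.0504 in their deviations from the group means, so the numbers were not taken to pair the libraries. With a replicate block 567 genes were called lower and 327 higher, and the members called stayed at 2 and 1.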
